A study of Mus musculus with 4 samples.

Results

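The genes described here are the mouse zinc finger genes whose symbols run from Zfp600 to Zfp999. They were chosen by symbol alone, as the protein-coding rows of the count table whose identifier carries such a name, and 171 of the 54842 gene rows met this rule. RNA was measured in mouse embryonic fibroblasts (MEF cells) that were wild-type (wt) or lacked Top2β, the DNA topoisomerase that relieves DNA tangles in non-dividing and dividing cells. There were 2 libraries of untreated wt MEF cells and 2 libraries of untreated Top2β-null MEF cells, all from total RNA depleted of ribosomal RNA, and their counts summed to between 133116830 and 149647278 over genes and repeat families. The Top2β-null MEF cells were a gift to the study, and the source of the wt MEF cells used beside them is not given in the sources used here, so genotype and origin of the cells cannot be told apart. No source used here says that the 2 libraries of a group came from separate cultures, and p-values then measure only the spread between these libraries, which may be technical.

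Most of these genes encode proteins with rows of C2H2 zinc fingers, small folds held by zinc that each read a few bases of DNA. Many also carry a KRAB box, which binds TRIM28 (KAP1). TRIM28 brings in SETDB1, a methyltransferase for H3K9, and HP1 proteins, and this machinery keeps retroelements silent. KRAB zinc finger genes arose by repeated tandem duplication, so that neighbours resemble each other, and the arrays of the mouse differ from those of other mammals.

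As a check of the labels, Top2b fell from 18259 and 18465 normalized counts in wt to 3879 and 3789 in Top2β-null MEF cells (log2 fold change -2.26, SE 0.03, adjusted p = 6.56e-19). A normalized count is a count scaled to a common library size. Of 10 fibroblast markers, 9 were over 100 normalized counts in every library. Their summed level was 1304651 to 1329148 in wt and 888230 to 893356 in Top2β-null MEF cells. Of 7 leukocyte markers, 5 were under 10 in every library, and the summed level of the list, mostly Cd68, was 1650 to 1700 in wt and 325 to 335 in Top2β-null MEF cells. The summed level of 5 epithelial markers was at most 28, that of 4 endothelial markers, mostly Kdr, 162 to 165 in wt and 252 to 258 in Top2β-null MEF cells, and that of 5 pluripotent and germ cell markers 197 to 212. The summed level of 4 neural markers, mostly Tubb3, was 2143 to 2173 in wt and 4557 to 4856 in Top2β-null MEF cells. The part of these shifts in the results below was not tested, and in bulk samples fewer cells of a type and less RNA per cell cannot be told apart.

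The 171 genes lie on 20 chromosomes, with 35 on chromosome 7, 22 on chromosome 17, 20 on chromosome 4, 16 on chromosome 8, 15 on chromosome 2 and 10 on chromosome 13. Taking as a cluster at least 4 of them with gaps of at most 1 Mb, 96 genes fell into 12 clusters and 75 into none. The longest coding sequence of 120 genes held a KRAB box pattern, and that of 51 did not. The number of C2H2 finger patterns ran from 0 to 33 with a median of 11. The closest other protein was at least 80% identical for 37 of the genes. For 26 genes, over 10% of the 150-base windows of the longest transcript occurred in a transcript of another gene, so that their reads could be split between copies.

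The high-numbered zinc finger genes were more often higher than lower in Top2β-null MEF cells. A gene was called when its adjusted p was below 0.05, its absolute log2 fold change above 1 and its mean above 100 normalized counts. Of the 155 genes tested, 23 were called higher (14.8%) and 2 lower (1.29%), while 5.27% of all 26566 genes and repeat families tested were called higher and 4.97% lower. Of the 23, 5 entered the test through the Top2β-null libraries alone. The number called higher was 12 where every library had to reach 100 counts, with a median log2 fold change of 0.14, and 14 among genes whose closest protein was under 80% identical. Fewer genes entered in each case and no share was computed, so these counts are not read against the 5.27%. By the adjusted p alone, 84 genes rose (54.2%), 44 fell (28.4%) and 27 did not pass, beside 32.5% higher and 32.5% lower over all features. Their median log2 fold change was 0.23, against 0.00 over all features. The groups of libraries did not overlap for 93 genes with higher and 50 genes with lower values in Top2β-null MEF cells, and over all features the shares were 40.3% and 40.2%.

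These counts have limits that come from the filter. The 16 genes that were not tested include 5 without a count in any library (Zfp616, Zfp648, Zfp683, Zfp711 and Zfp735) and 11 with at most 16 counts. Of the tested genes, 13 were under 10 counts in both wt libraries, so that they entered the test through the Top2β-null libraries alone, and 1 entered through the wt libraries alone. The lower-numbered genes, Zfp1 to Zfp599, had 16 of 184 called higher (8.7%) and 5 lower (2.72%), beside 5.27% and 4.97% over all features. The number called lower was 2 where every library had to reach 100 counts. Their median log2 fold change was 0.10. By the adjusted p, 45.1% of them rose and 33.2% fell, beside 32.5% in each direction over all features. The difference between both number ranges was not tested.

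The summed level of all 171 genes differed little between the groups. It was 281559 and 282399 normalized counts in wt against 306019 and 302912 in Top2β-null MEF cells. The groups did not overlap and lay 1.08-fold apart, but the two-sided exact permutation test gave p = 0.333, the smallest that 2 against 2 libraries allow. Summed over Zfp1 to Zfp599, the groups lay 1.07-fold apart.

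**Figure D1:**
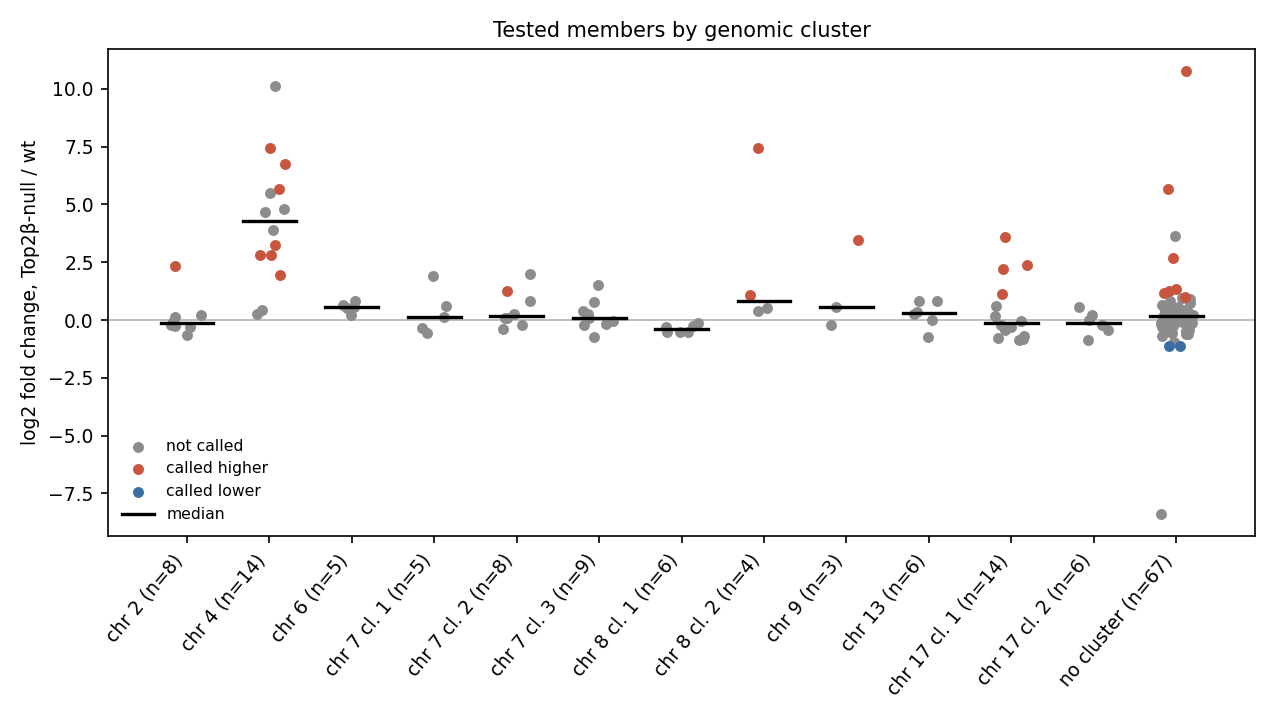
Log2 fold change (Top2β-null over wt) of the 155 tested genes, by genomic cluster (n is the number tested). Each point is a gene, red where called higher, blue where called lower and grey otherwise, and black bars are medians. The chromosome 4 cluster stands highest with a median of 4.29 (2.46 and 2.35 without Top2β-null library 1 and 2), and the medians of the other clusters lie between -0.40 and 0.80.

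The gene-rich array on distal chromosome 4 held the clearest pattern. It spans 2.34 Mb (GRCm38 chr4:145510759-147848366) and holds 17 of the genes, all with a KRAB box pattern. All 17 had higher values in both Top2β-null libraries than in either wt library, with 3 of them too low to be tested. The share over all features tested was 40.3%, but the 17 are not read against it. Of the 14 tested, 8 were under 10 counts in both wt libraries and entered the test through the Top2β-null libraries alone, so that they had to be higher there and their count is not read against the background. The other 6, Zfp992, Zfp993, Zfp991, Zfp979, Zfp984 and Zfp933, had more than 10 counts in every library and all rose by the adjusted p (background 32.5%). Of these 6, 4 were called higher (Zfp992, Zfp993, Zfp991 and Zfp979), beside 5.27% over all features. Over the 14, 7 were called, with Zfp600, Zfp981 and Zfp985 from the genes whose direction was fixed, and the median log2 fold change was 4.29. This median followed from which genes entered the test and which libraries were kept. It was 2.46 and 2.35 without Top2β-null library 1 and 2, 3.51 and 4.97 without wt library 1 and 2, 2.39 with at least 100 counts in every library and 3.62 with DESeq2. The mean level of these genes had a lowest, median and highest value of 0.00, 2.48 and 1645 normalized counts in wt MEF cells, and of 6.10, 228 and 2821 in Top2β-null MEF cells. The summed level of the cluster was 4352 and 4262 normalized counts in wt against 13392 and 13326 in Top2β-null MEF cells, a ratio of 3.10 (two-sided exact permutation test, p = 0.333). Without these 17 genes, 16 of 141 tested were called higher (11.3%, beside 5.27% over all features) and 2 lower (1.42%, beside 4.97%), with a median log2 fold change of 0.17.

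Promoters of this array are shown here because values of its genes were higher together. RefSeq promoters (GRCm38.p6, 250 bases before to 50 after a start) lay within 500 bases of the GENCODE start for 127 of the 171 genes, 9 of them in the chromosome 4 array. A search for the longest run of bases present in at least 8 of these 9 found the 15-base stretch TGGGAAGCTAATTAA, which Zfp933 alone lacked. The 160 bases before the RefSeq start follow for 6 genes, 5′ to 3′ on the strand of the gene. Capitals mark the shared stretch, CCAAT on either strand (read as ATTGG where reversed) and GGGCGG on either strand.
Zfp600, chr4:146156667-146156826, plus strand: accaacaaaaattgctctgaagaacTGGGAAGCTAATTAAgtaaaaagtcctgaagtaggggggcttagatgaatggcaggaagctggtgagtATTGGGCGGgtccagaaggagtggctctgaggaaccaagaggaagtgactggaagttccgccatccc
Zfp982, chr4:147492257-147492416, plus strand: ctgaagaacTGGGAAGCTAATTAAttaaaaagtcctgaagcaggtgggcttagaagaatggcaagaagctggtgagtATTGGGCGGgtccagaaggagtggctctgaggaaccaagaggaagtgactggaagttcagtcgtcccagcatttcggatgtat
Zfp985, chr4:147553117-147553276, plus strand: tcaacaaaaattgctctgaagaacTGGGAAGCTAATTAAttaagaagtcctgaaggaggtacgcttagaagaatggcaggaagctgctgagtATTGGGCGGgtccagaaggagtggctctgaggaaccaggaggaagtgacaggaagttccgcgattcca
Zfp979, chr4:147642509-147642668, minus strand: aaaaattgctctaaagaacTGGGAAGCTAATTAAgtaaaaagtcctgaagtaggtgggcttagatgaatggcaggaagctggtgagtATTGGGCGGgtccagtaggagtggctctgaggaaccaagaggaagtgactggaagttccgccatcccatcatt
Zfp984, chr4:147809789-147809948, minus strand: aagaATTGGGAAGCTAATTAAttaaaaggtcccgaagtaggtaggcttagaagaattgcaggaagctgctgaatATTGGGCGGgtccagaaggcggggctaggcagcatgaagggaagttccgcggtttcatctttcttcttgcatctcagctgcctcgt
Zfp933, chr4:147848419-147848578, minus strand: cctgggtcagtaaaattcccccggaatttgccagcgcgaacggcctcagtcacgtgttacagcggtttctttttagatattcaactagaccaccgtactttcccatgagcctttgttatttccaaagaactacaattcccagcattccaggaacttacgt

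In the 8 promoters that hold it, the shared stretch began 114 to 154 bases before the start. A reversed CCAAT followed it, 46 to 86 bases before the start, and in 7 of the 8 this box ran directly into GGGCGG to give ATTGGGCGG, which Zfp987 lacked. On either strand, ATTGGGCGG was in 84 of the 32851 RefSeq promoter entries of the mouse (0.256%) and in 2 of the 118 promoters of the other high-numbered genes (1.69%). It was taken from these same promoters, most of which are alike well beyond it, and the 84 include entries of the array. These shares are therefore a description and not a test of enrichment. CCAAT alone was in 37.4% of all entries and in 58.5% of the other high-numbered promoters, GGGCGG was in 35.7% and 40.7%, and ATTGGGCGG contains both, since they overlap. The letters TATAAA were in none of the 9 promoters, in 3 of the other 118 (2.54%) and in 13.6% of all entries. The number of CG pairs in the 300 bases was 3 to 9 (median 5.0) in the 9 promoters of the array and 2 to 59 (median 11.5) in the other 118.

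Across all RefSeq entries the 15-base stretch was in 12 (0.0365%), 1 for each of 12 genes, all on chromosome 4. Of these, 9 are high-numbered genes of the array. The others are Rex2, Gm13212 and Zfp534, which lie inside it but are outside the number range. Of the 12, 10 were tested, and most of these, Zfp982 and Rex2 included, entered the test through the Top2β-null libraries alone. Gm13212 was at 82.8 and 80.2 normalized counts in wt against 97.4 and 103 in Top2β-null MEF cells and did not pass (log2 fold change 0.30, adjusted p = 0.161). The stretch was searched for in an array picked out because its values were higher in Top2β-null MEF cells, so its place in the genome is a description. The RefSeq entry of Zfp981, which also holds it, starts over 500 bases from the GENCODE start and is not among the 9.

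**Figure D2:**
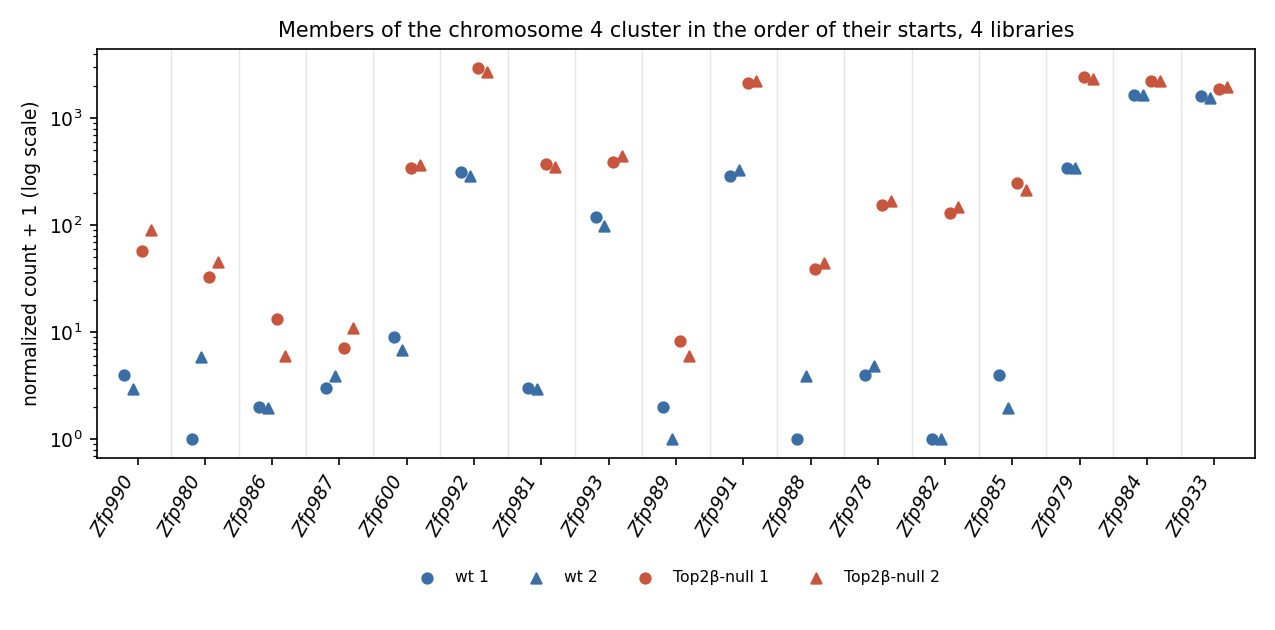
Normalized counts plus 1 (log axis) of the 17 genes of the chromosome 4 array in the order of their starts, in 2 wt libraries (blue) and 2 Top2β-null libraries (red), with circles for library 1 and triangles for library 2. The red points lie above the blue points for every gene, and the gap narrows to 1.34-fold and 1.21-fold for Zfp984 and Zfp933 at the far end.

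Along the array, 11 of the 17 genes were under 10 normalized counts in both wt libraries. Zfp600, at 8.07 and 5.80 normalized counts in wt, reached 345 and 365 in Top2β-null MEF cells (log2 fold change 5.66, SE 0.22, adjusted p = 9.98e-13). Zfp981 had 2.02 and 1.93 normalized counts in wt and 370 and 350 in Top2β-null MEF cells (log2 fold change 7.42, SE 0.26, adjusted p = 4.02e-13). It rested on 2 reads in each wt library, and the ratio of 182 has an exact 95% interval of 70.8 to 670, which covers counting error only. Zfp985 had 3.03 and 0.97 in wt and 245 and 211 in Top2β-null MEF cells, a ratio of 114 (95% interval 44.3 to 421).

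Zfp982 was at 0 counts in both wt libraries and at 124 and 147 counts in the Top2β-null libraries. Against a floor of 3 counts per wt library it was at least 46.2-fold higher (adjusted p = 8.39e-10), but its mean was under 100 and it was not called. Its sequence is apart from the other copies, with no window shared and a closest protein, that of Zfp986, at 59.9% identity. Zfp978 was at 3.03 and 3.86 normalized counts in wt and at 154 and 168 in Top2β-null MEF cells. Zfp990 had 3.03 and 1.93 against 55.9 and 90.1, and no shared window either. Zfp980 and Zfp988 were at most 4.83 in wt and between 32.1 and 44.6 in Top2β-null MEF cells. The groups of these 5 genes did not overlap, but all 5 entered the test through the Top2β-null libraries alone, which fixed their direction.

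A second set was present in both groups. Zfp992 was at 310 and 288 normalized counts in wt and at 2950 and 2692 in Top2β-null MEF cells (log2 fold change 3.24, SE 0.07, adjusted p = 4.40e-16). Zfp979 was at 339 and 340 against 2425 and 2336 (log2 fold change 2.81, SE 0.06, adjusted p = 5.35e-16). Zfp991 was at 289 and 328 against 2149 and 2244, and Zfp993 at 118 and 97.6 against 390 and 447. Zfp991, Zfp992 and Zfp993 encode proteins over 99% identical to one of each other (99.4% for Zfp992, 99.7% for Zfp991 and Zfp993), and 62.8% of the windows of Zfp991, 60.9% of Zfp993 and 21.3% of Zfp992 were shared, so how the reads divide among them is uncertain.

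The last 2 genes of the array, Zfp984 and Zfp933, were the most abundant in wt. Zfp984 was at 1654 and 1636 normalized counts in wt and at 2204 and 2222 in Top2β-null MEF cells (log2 fold change 0.43, SE 0.04, adjusted p = 3.79e-07). Zfp933 was at 1619 and 1545 against 1880 and 1947 (log2 fold change 0.27, SE 0.05, adjusted p = 1.12e-04). Zfp984 carries the shared promoter stretch and Zfp933 does not, as printed above. The 3 genes not tested had few counts, with Zfp986 at 1 and 1 in wt and 12 and 5 in Top2β-null MEF cells, Zfp987 at 2 and 3 against 6 and 10, and Zfp989 at 1 and 0 against 7 and 5.

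Of the 17 genes, 12 had over 10% of windows shared with other genes, and their part in the result was not tested. Under 1% of windows were shared for 4 genes, Zfp990, Zfp982, Zfp985 and Zfp933, of which Zfp933 alone entered the test through libraries of both groups. The spans of 9 overlap a gene on the opposite strand, and no source used here states the strand setting of the counting. When either Top2β-null library was left out, 4 genes of the array were called in place of 7, because the other 3 (Zfp600, Zfp981 and Zfp985) then had too few libraries with 10 counts to enter the test.

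Genes of the same interval and its flanks that fall outside the number range are given for comparison. Inside the span, Rex2, another KRAB zinc finger gene, was at 3.03 and 3.86 normalized counts in wt and at 156 and 141 in Top2β-null MEF cells (log2 fold change 5.38, adjusted p = 3.80e-10). Of 40 tested genes of other types in the span, pseudogenes and non-coding RNAs included, 28 rose and 3 fell by the adjusted p, and 14 of the 40 entered the test through the Top2β-null libraries alone. Of the 25 that entered through both groups, 15 rose and 2 fell, beside 32.5% in each direction over all features. Within 1 Mb before the array, all 4 tested coding genes fell (median -1.25). One of these, Tnfrsf8, was at 12.1 and 18.4 normalized counts in wt and at 3.11 and 0.99 in Top2β-null MEF cells. It entered the test through the wt libraries alone, which fixed its direction. Within 1 Mb after it, 6 of 23 rose and 10 fell, with 1 called higher (Agtrap), 1 called lower (Plod1) and a median of -0.06. One neighbour that rose without a call was Fv1, the retrovirus restriction gene, at 927 and 905 against 1774 and 1807 normalized counts. The 893 tested coding genes elsewhere on chromosome 4 had a median log2 fold change of -0.11.

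Of the other 11 clusters, 8 held genes that rose and genes that fell. On chromosome 17, a cluster of 14 genes (chr17:21383748-22867134) had 4 called higher (28.6%, background 5.27%), while 7 fell and 6 rose (42.9%) by the adjusted p, with 32.5% in each direction over all features. Zfp983 was at 19.2 and 16.4 normalized counts in wt and at 205 and 228 in Top2β-null MEF cells (log2 fold change 3.60, SE 0.21, adjusted p = 2.47e-10). Zfp760 was at 254 and 251 against 1225 and 1139, and Zfp947 at 40.4 and 49.3 against 224 and 240. Other genes of the cluster fell. Zfp948, the second most abundant of all 171 genes per kb of exon, was at 6384 and 6321 in wt and at 4013 and 3916 in Top2β-null MEF cells (log2 fold change -0.68, SE 0.03, adjusted p = 6.51e-12). Zfp758 was at 1310 and 1133 against 651 and 675 (log2 fold change -0.88, SE 0.07, adjusted p = 1.50e-08).

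The 2 clusters on chromosome 8 were each of one direction, beside 32.5% higher and 32.5% lower by the adjusted p over all features, and the difference between them was not tested. In the first (chr8:69209038-69791178) all 6 genes fell, by log2 fold changes from -0.54 for Zfp868 to -0.11 for Zfp930, and none was called. Zfp930 did not pass with DESeq2 (adjusted p = 0.129), with scaling to the total count (0.352) or without either Top2β-null library (0.205 and 0.142). Zfp869, the third most abundant of the 171 per kb, was at 3658 and 3606 normalized counts in wt and at 2590 and 2425 in Top2β-null MEF cells (adjusted p = 9.30e-09). In the second (chr8:71882019-71993792) all 4 rose, of which Zfp709 entered the test through the Top2β-null libraries alone. Zfp709 went from 0.00 and 3.86 normalized counts in wt to 373 and 362 in Top2β-null MEF cells (log2 fold change 7.45, SE 0.31, adjusted p = 3.11e-12). Zfp961 was at 1562 and 1651 against 3395 and 3359 (log2 fold change 1.07, SE 0.04, adjusted p = 2.47e-12), and Zfp617, the least changed of the 4, at 1920 and 1943 against 2536 and 2511.

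The cluster on chromosome 6 was also of one direction, with 5 of 5 genes higher by the adjusted p (32.5% over all features), none called (5.27% over all features) and a median log2 fold change of 0.56. Its strongest change was in Zfp746 (PARIS), a repressor known as a substrate of Parkin, at 3042 and 3036 normalized counts in wt and 5525 and 5377 in Top2β-null MEF cells (log2 fold change 0.84, SE 0.03, adjusted p = 1.53e-12). Zfp956 changed least, with a log2 fold change of 0.23 (adjusted p = 0.0141), and did not pass with DESeq2 (0.113), without Top2β-null library 1 (0.0552) or without wt library 1 (0.118).

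Of the 8 tested genes of the chromosome 2 cluster, 2 rose (25.0%), 1 fell (12.5%) and 5 did not pass, shares below the 32.5% in each direction over all features. Zfp972 was called higher, at 53.5 and 42.5 against 254 and 227 normalized counts (log2 fold change 2.32). Several genes of this cluster have near copies. The closest protein of Zfp972 was 98.5% identical, and for Zfp969, all of whose windows were shared, the levels were 36.3 and 26.1 against 20.7 and 18.8 normalized counts in wt and Top2β-null MEF cells (adjusted p = 0.108).

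On chromosome 9, Zfp810 was at 36.3 and 33.8 normalized counts in wt and 369 and 406 in Top2β-null MEF cells (log2 fold change 3.46, SE 0.15, adjusted p = 6.30e-12). Its neighbour in the same cluster, Zfp809, moved the other way.

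Clusters on chromosomes 7, 13 and 17 with medians nearer 0 had members on both sides. In the 3 clusters of chromosome 7, 3 of 5, 3 of 8 and 4 of 9 tested genes rose and 2, 2 and 3 fell by the adjusted p, with 32.5% in each direction over all features. The extremes were Zfp773 (log2 fold change 1.91) and Zfp772 (-0.56) in the first, Zfp819 (2.01) and Zfp788 (-0.38) in the second, and Zfp764 (1.49) and Zfp747 (-0.73) in the third. Zfp773 and Zfp819 were under 10 counts in both wt libraries and entered the test through the Top2β-null libraries alone, which fixed their direction. The second cluster also held Zfp976, called higher at 361 and 443 against 947 and 950 normalized counts. The chromosome 13 cluster ran from Zfp712 (-0.71, or -0.34 and not past the test without Top2β-null library 1) to Zfp759 (0.84), and the second cluster of chromosome 17 from Zfp870 (-0.88) to Zfp763 (0.56).

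Outside any cluster, 7 of 67 tested genes were called higher (10.4%) and 2 lower (2.99%), beside 5.27% and 4.97% over all features. Zfp618, whose protein is known as a partner of UHRF2 at hydroxymethylated DNA, was at 0 counts in both wt libraries and at 207 and 219 counts in the Top2β-null libraries, at least 72.8-fold higher against the floor of 3 counts per wt library (adjusted p = 4.12e-11). It entered the test through the Top2β-null libraries alone, which fixed its direction. Zfp951 was at 11.1 and 6.76 normalized counts in wt and at 467 and 457 in Top2β-null MEF cells (log2 fold change 5.68, SE 0.19, adjusted p = 2.11e-13). Zfp941 was at 196 and 203 against 1307 and 1250 (log2 fold change 2.68, SE 0.07, adjusted p = 1.34e-14). Zfp827, whose human counterpart recruits the NuRD complex to telomeres, was at 3302 and 3461 against 8759 and 8175 (log2 fold change 1.32, SE 0.04, adjusted p = 1.55e-14). The remaining 3, Zfp839, Zfp850 and Zfp937, rose with log2 fold changes of 1.01, 1.19 and 1.26.

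The 2 genes called lower were Zfp622 and Zfp940. Zfp622, a maturation factor of the large ribosomal subunit, was at 9426 and 9820 normalized counts in wt and at 4456 and 4380 in Top2β-null MEF cells (log2 fold change -1.12, SE 0.03, adjusted p = 8.27e-15). Zfp940 was at 538 and 596 against 251 and 271 (log2 fold change -1.12, SE 0.09, adjusted p = 1.25e-08). Zfp641, chosen after its values were seen, was the reverse of the genes absent from wt. It was at 34 and 51 counts in wt and at 0 in both Top2β-null libraries, at least 13.8-fold lower against the floor of 3 counts per library, and its mean was too low for a call.

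**Figure D3:**
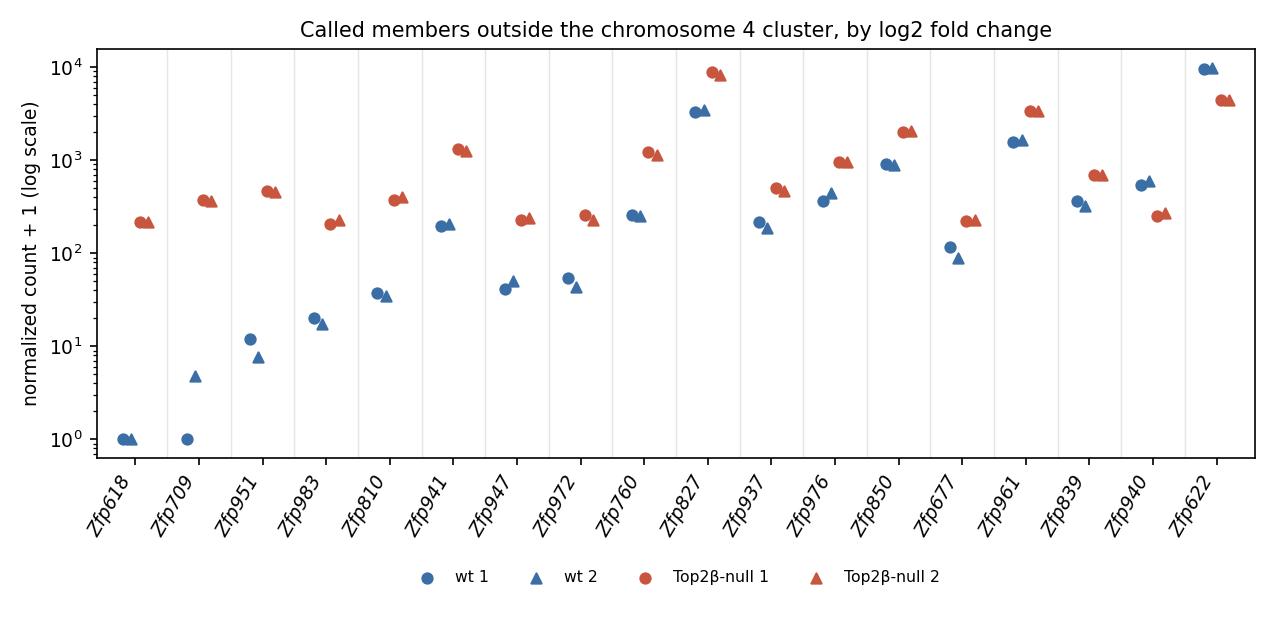
Normalized counts plus 1 (log axis) of the called genes outside the chromosome 4 array, 16 higher and 2 lower, ordered by log2 fold change, in 2 wt (blue) and 2 Top2β-null libraries (red). The 16 genes on the left are higher and Zfp940 and Zfp622 on the right lower in Top2β-null MEF cells, and the groups do not overlap for any of them.

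Levels per kb of exon spanned a wide range, with a median of 186 and a highest value of 3560 normalized counts per kb. The most abundant was Zfp706, at 23538 and 23012 normalized counts in wt and 12022 and 12350 in Top2β-null MEF cells. Its log2 fold change of -0.93 (SE 0.03, adjusted p = 1.77e-14) fell just short of the cut-off of 1, so it was lower without being called. Among the 8 most abundant per kb, Zfp655 rose from 7392 and 7504 to 13179 and 13383 (log2 fold change 0.83, SE 0.03, adjusted p = 6.01e-14). Zfp638, a nuclear protein known to silence unintegrated retroviral DNA, rose from 17507 and 17449 to 24174 and 22909 (log2 fold change 0.43). Zfp609, a nuclear partner of the cohesin loader Nipbl, rose by a log2 fold change of 0.33, and Zfp740 fell by 0.56 on the log2 scale. Zfp703, a co-repressor, was at 5159 and 5557 against 5159 and 5368, with groups that overlap (log2 fold change -0.03, SE 0.04, adjusted p = 0.556, or 0.0364 without wt library 1). None of these 8 genes was called.

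**Figure D4:**
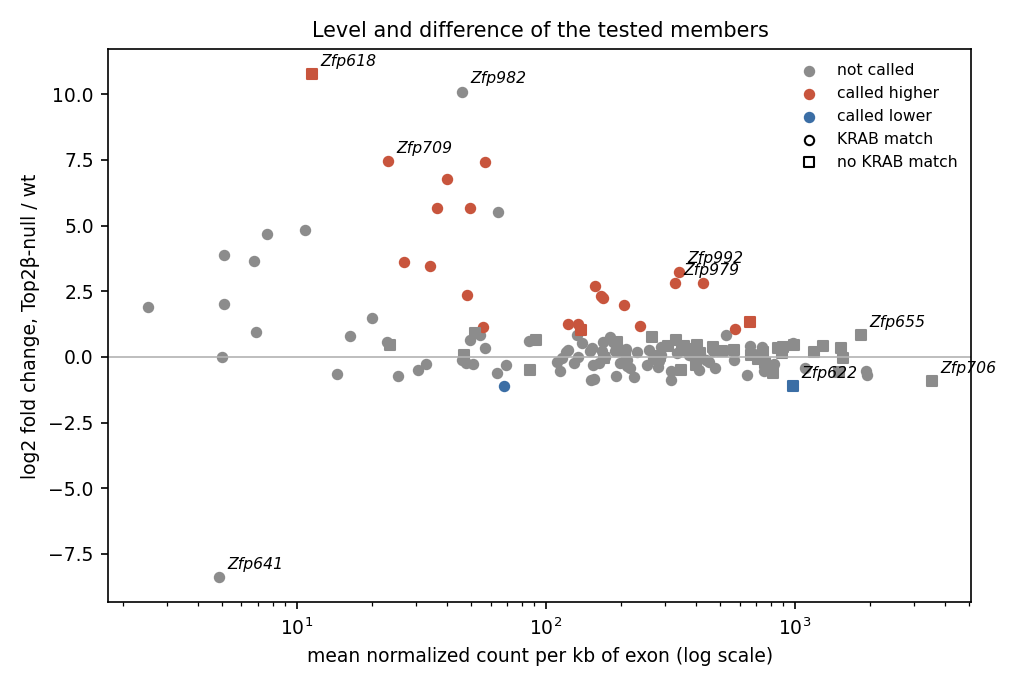
Mean normalized count per kb of exon over the 4 libraries (log axis) against log2 fold change (Top2β-null over wt) of the 155 tested genes. Circles have a KRAB box pattern and squares do not, and red, blue and grey mark genes called higher, called lower and not called. The genes with log2 fold changes above 5 all have fewer than 100 normalized counts per kb.

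Several genes have known roles in silencing. Zfp809, which binds the primer binding site of murine leukaemia viruses and recruits TRIM28, fell slightly, from 2398 and 2427 to 2080 and 2079 normalized counts (log2 fold change -0.21, SE 0.04, adjusted p = 3.29e-04). Beside it, of 6 retroviral families listed as its targets 3 rose and 3 fell, with MuLV-int at a log2 fold change of 0.61, RLTR6-int at 0.32, RLTR6_Mm at -0.66 and MMVL30-int at -0.88. Zfp708, which binds RMER19B elements, was at 137 and 127 against 165 and 169 (log2 fold change 0.34, SE 0.14, adjusted p = 0.0471). It did not pass with DESeq2 (adjusted p = 0.262), with a replicate block (0.0628) or with any 1 library left out (0.0542 to 0.229). All of its windows are shared with other genes, among them a readthrough transcript. RMER19B itself was at 45181 and 46855 against 47925 and 44142 (adjusted p = 0.992). Zfp932, a repressor of endogenous retroviruses, was at 1546 and 1445 against 1440 and 1302 (adjusted p = 0.0714, or 0.0404 with a replicate block), and its groups did not overlap. It passed without Top2β-null library 1 (adjusted p = 0.0169) and without wt library 2 (0.00898). No relation between a gene and a repeat family was tested.

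The remaining genes chosen for known roles, apart from those described above, were not called. Zfp687, a partner of ZMYND8, rose from 4588 and 4473 to 5641 and 5680 (log2 fold change 0.32, SE 0.03, adjusted p = 8.94e-08). Zfp652 rose by a log2 fold change of 0.25, Zfp800 by 0.44 and Zfp697 by 0.63. Zfp750, a regulator of epidermal differentiation, fell from 361 and 293 to 248 and 220 (log2 fold change -0.48, SE 0.12, adjusted p = 1.96e-03). Zfp704 (log2 fold change -0.05, adjusted p = 0.244) and Zfp830, a splicing and genome stability factor (-0.08, adjusted p = 0.240), did not pass the test.

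By the pattern in the protein, 20 of 110 tested genes with a KRAB box pattern were called higher (18.2%) and 1 lower. Of 45 without it, 3 were called higher (6.67%) and 1 lower, beside 5.27% and 4.97% over all features. Zfp600, Zfp981, Zfp985 and Zfp709 with the pattern and Zfp618 without it entered the test through the Top2β-null libraries alone. Their direction was therefore fixed. By the adjusted p, a smaller share rose with the pattern (55 of 110) than without it (29 of 45, 64.4%). A larger share fell with it (36, 32.7%) than without it (8, 17.8%), beside 32.5% in each direction over all features. The median log2 fold change was 0.19 with the pattern and 0.25 without. Outside the chromosome 4 array, 13 of 96 genes with the pattern were called higher (13.5%) and their median was 0.04. By the adjusted p, 41 of these 96 rose (42.7%) and 36 fell (37.5%). By the number of finger patterns, 4 of 20 genes with 0 to 3, 5 of 46 with 4 to 9 and 14 of 89 with 10 or more were called higher. The differences between these classes were not tested.

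The partners of KRAB proteins were measured in the same libraries. Of 30 co-repressor genes, 16 rose (53.3%) and 11 fell (36.7%) by the adjusted p, beside 32.5% in each direction over all features. A single one (3.33%) was called lower, near the 4.97% over all features. It was Chd3, a NuRD helicase, which fell from 32688 and 32852 to 9518 and 9389 normalized counts (log2 fold change -1.79, SE 0.03, adjusted p = 3.94e-18). Trim28 rose from 29701 and 30931 to 36201 and 36485 (log2 fold change 0.26) and Setdb1 from 9416 and 9517 to 13894 and 13804 (log2 fold change 0.55). Cbx5, which encodes HP1α, fell from 118720 and 119577 to 76708 and 77668 (log2 fold change -0.63). Related genes of the list went other ways. Cbx3 rose from 21007 and 20677 to 29267 and 29374 (log2 fold change 0.49), and Cbx1 changed by -0.08 on the log2 scale. Chd4 rose from 41192 and 41994 to 64410 and 63266 (log2 fold change 0.62).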

How the data were processed

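Total RNA of 4 libraries was sequenced. The authors trimmed the paired-end reads, aligned them to mm10 with STAR, keeping reads with many alignments, and counted them over genes and repeat families with TEtranscripts. The deposited values are raw counts, and the mode for multi-mapped reads and the strand setting are not given in the sources used here. Symbols, positions, transcripts and coding sequences came from GENCODE M21 (GRCm38), which matched 54495 of 54842 gene rows.

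Every feature that reached 10 counts in 2 or more libraries was tested with edgeR's quasi-likelihood test (R 4.3.3, edgeR 4.0.16, TMM factors over genes and repeats), with Benjamini-Hochberg adjustment over all 26566 features, after the script was tested on simulated data. The SE is the absolute log2 fold change over the root of F. Libraries of a group varied beyond sampling noise, with a chi-square of 3.65 (wt) and 5.07 (Top2β-null) per degree of freedom. Finger and KRAB patterns were searched in the longest coding sequence, and closest proteins with blastp (BLAST 2.17.0, at least 50% of the query covered). A KRAB box was either LYxxVM or DVxxxFxxxEW. Intervals and floors cover counting error only.

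Named genes were up to 15 called in each direction by size, the 8 most abundant per kb, the extremes of each cluster, and genes with known roles. Zfp641, Zfp839, Zfp850, Zfp937 and the remaining genes of the chromosome 4 cluster, like some others named beside a count, were outside that rule. The members and lists were chosen with earlier results of these data known. The alternatives tried were DESeq2 1.42.0, other scalings, filters and cut-offs, other member definitions, a replicate block and leaving out each library. The members without much shared sequence and those outside the chromosome 4 cluster were alternatives chosen after seeing the data.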

Additional observations from a re-analysis of the deposited data

How the results depend on the processing

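DESeq2, the other scalings and the replicate block each gave 23 members called higher and 2 lower, as edgeR did. Same-numbered libraries did not deviate together (correlation 0.0207 over 17952 features, which pairs nothing), and the replicate block gave 82 members higher and 45 lower by the adjusted p. With at least 100 counts in every library, 12 members were called higher, 4 of them in the chromosome 4 cluster, and 2 of Zfp1 to Zfp599 were called lower, since fewer genes were tested. With only members whose closest protein was under 80% identical, 14 were called higher, and with only those sharing under 10% of windows, 18. An absolute log2 fold change above 0.58 gave 34 called higher and 13 called lower, with no share over all features computed at that cut-off. The median log2 fold change of the members was 0.245 with DESeq2, 0.143 with at least 100 counts in every library, 0.257 without a filter, 0.295 when scaled by total counts, and from 0.179 to 0.223 with 1 library left out. Leaving out 1 library gave 17 to 25 members called higher, 4 to 8 in the chromosome 4 cluster, and 3 to 5 of Zfp1 to Zfp599 called lower. The median of the first cluster of chromosome 7 turned to -0.087 with at least 100 counts in every library and, with 1 library left out, ran from -0.082 to 0.164, being negative without either Top2β-null library (-0.082 and -0.047), and the cause was not tested. Of 376 values of 56 named genes with all libraries kept, 368 kept their side of the threshold, 7 lost it, 1 gained it and none reversed. Of 208 values with 1 library left out, 196 kept it, 9 lost it, 3 gained it and none reversed. At this depth, 3 counts in a library correspond to 0.02 to 0.0225 CPM.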
